A study of Rattus norvegicus with 25 samples.

Results

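The keratins described here are those of stratified epithelium and hair. They were taken from the transcript table as every gene whose symbol is Krt followed by a digit, without Krt7, Krt8, Krt18 and Krt19, the keratins of simple epithelium and glands. This gave 43 of the 30547 genes, measured through 73 transcripts that were summed per gene. They comprised 24 type I keratins, all on chromosome 10, and 19 type II keratins, all on chromosome 7 (Rnor_6.0). By known site of expression, 3 were basal, 11 suprabasal, 2 inducible, 13 of the hair shaft and 8 of the root sheath, and 6 were placed in none of these classes. Krt3, the Krt6 genes, Krt33a, Krt33b, Krt37, Krt38, Krt74 and Krt87 to Krt90 were not analysed here.

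Keratins are the intermediate filaments of epithelial cells, and each filament is built from pairs of 1 type I and 1 type II chain. In stratified epithelium, cells of the basal layer make Krt5 with Krt14, and cells that leave it switch to other pairs, Krt1 with Krt10 where the surface cornifies and Krt4 with Krt13 in softer lining mucosa. Krt16 and Krt17 are induced in wounded or rapidly dividing epithelium, and hair keratins are made in the hair shaft and root sheath and in the hard papillae of the rodent mouth, in which gingiva and palate are cornified.

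Gingival RNA was sequenced from 25 Sprague-Dawley rats of wild-type genotype, with 1 library per rat and 5 rats in each of 5 groups, and the labels give their age as 6 weeks whereas the methods give an older one. In the experimental periodontitis (EP) group, ligatures at the maxillary first molars of both sides were combined with Porphyromonas gingivalis, a bacterium of periodontal pockets. The 3 gel groups had the same disease and received 200 µL of a methylcellulose hydrogel weekly for 4 weeks, loaded with curcumin (Cur gel), zinc oxide nanoparticles (ZNP gel) or both agents together (Cur/ZNP gel), and the combined gel held less of each agent than the single gels. Sham rats were healthy and had hydrogel as control, and whether EP rats had hydrogel without drug is not stated, so that disease was compared as EP against sham and treatment as each gel against EP.

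Values are normalised read counts, that is, reads divided by 1 size factor per library as deposited. Libraries held 50690789 to 81791804 reads. Sham 4, EP 3 and EP 4 stood apart, with 22.1%, 16.9% and 20.9% of their reads on transcripts of nasal glands against at most 0.123% in the others, and with 0.157%, 0.507% and 0.789% of their reads on keratins against 1.32% to 5.37%. Results are therefore also given without these 3 libraries. A keratin was tested where it reached a CPM (reads as a share of the library, scaled to a fixed total) of 2 in at least 1 library, which 36 of 43 did, and Krt9, Krt20, Krt26, Krt28, Krt35, Krt40 and Krt82 did not. In whole tissue, fewer cells of a type and less RNA per cell cannot be told apart.

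Promoter sequences were available in RefSeq (GRCr8, a later build than that of the files) for 31 keratins with 1 entry and for Krt79 with several. Krt1, Krt13, Krt14, Krt15, Krt16, Krt17, Krt80, Krt81, Krt83, Krt86 and Krt222 had no entry. Each window runs from 250 bases before the start of the transcript to 50 after it. The windows of 6 keratins are shown, 5′ to 3′ on the strand of the gene (minus for all 6), for the classes on which the results turn, namely basal Krt5, suprabasal Krt4, hair shaft Krt36, Krt84 and Krt31, and root sheath Krt71. Capitals mark matches, on either strand, to 4 motifs. The TATA box was searched as TATAAA. The AP-1 motif was TGANTCA. For AP-2 the letters were GCCNNNGGC. TCF/LEF was searched as CTTTGA.
Krt5 (chr7:134730520-134730819): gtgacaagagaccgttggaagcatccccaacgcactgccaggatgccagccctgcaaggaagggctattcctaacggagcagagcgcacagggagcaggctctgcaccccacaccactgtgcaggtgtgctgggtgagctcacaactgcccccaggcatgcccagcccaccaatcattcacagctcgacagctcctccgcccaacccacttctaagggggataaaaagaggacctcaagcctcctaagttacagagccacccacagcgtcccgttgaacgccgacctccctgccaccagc
Krt4 (chr7:134930664-134930963): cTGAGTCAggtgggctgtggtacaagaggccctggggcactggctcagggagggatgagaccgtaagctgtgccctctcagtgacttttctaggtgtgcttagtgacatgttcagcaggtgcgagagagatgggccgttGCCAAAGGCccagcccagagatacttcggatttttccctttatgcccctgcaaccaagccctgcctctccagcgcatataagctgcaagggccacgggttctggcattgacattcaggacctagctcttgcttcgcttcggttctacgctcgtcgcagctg
Krt36 (chr10:85540354-85540653): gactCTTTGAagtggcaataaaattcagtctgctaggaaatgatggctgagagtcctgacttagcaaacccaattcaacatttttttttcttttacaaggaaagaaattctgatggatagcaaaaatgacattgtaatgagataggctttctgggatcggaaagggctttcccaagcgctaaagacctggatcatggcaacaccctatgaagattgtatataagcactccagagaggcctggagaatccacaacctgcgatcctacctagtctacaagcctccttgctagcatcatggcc
Krt84 (chr7:134535559-134535858): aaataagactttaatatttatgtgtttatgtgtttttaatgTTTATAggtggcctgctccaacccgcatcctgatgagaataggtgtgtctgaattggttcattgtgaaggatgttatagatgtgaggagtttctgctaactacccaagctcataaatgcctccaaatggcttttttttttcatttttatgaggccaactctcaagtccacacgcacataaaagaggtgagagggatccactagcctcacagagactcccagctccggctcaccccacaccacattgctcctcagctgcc
Krt31 (chr10:85483251-85483550): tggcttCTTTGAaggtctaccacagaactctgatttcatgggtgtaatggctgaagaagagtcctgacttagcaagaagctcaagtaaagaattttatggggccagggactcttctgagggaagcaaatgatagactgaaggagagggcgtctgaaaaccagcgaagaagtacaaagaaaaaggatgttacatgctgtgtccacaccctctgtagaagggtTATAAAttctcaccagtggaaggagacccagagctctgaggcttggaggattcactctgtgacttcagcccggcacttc
Krt71 (chr7:134760984-134761283): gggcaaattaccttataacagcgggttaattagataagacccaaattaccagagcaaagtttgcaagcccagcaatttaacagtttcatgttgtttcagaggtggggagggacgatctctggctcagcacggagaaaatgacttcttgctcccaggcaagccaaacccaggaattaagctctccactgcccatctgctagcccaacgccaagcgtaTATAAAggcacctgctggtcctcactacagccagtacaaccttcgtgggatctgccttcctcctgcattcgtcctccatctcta
The Krt5 window held none of the 4 motifs. The Krt4 window held an AP-1 match 249 bases and an AP-2 match 111 bases before the start, and Krt4 was the only keratin of the 31 with an AP-1 match, which 7.33% of the 33469 RefSeq promoters held. Krt36 and Krt31 held a CTTTGA match at 246 and 244 bases before the start. TATAAA lay 29 bases before the start of Krt31 and 34 before that of Krt71, and on the reverse strand 209 bases before that of Krt84. Over the 31 keratins, TATAAA was found in 19 (61.29%) against 14.22% of all promoters, among them 7 of 10 of the hair shaft, 7 of 8 of the root sheath and 2 of 8 suprabasal. CTTTGA was found in 10 (32.26%) against 16.09% of all promoters, and 6 of these 10 were hair shaft keratins. These matches describe the letters only, and no binding was measured.

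Between EP and sham, 3 of the 36 keratins passed the test, 1 higher and 2 lower in EP, which is 8.33% against 37.6% of all 16092 genes tested (18.8% higher and 18.8% lower). The basal keratin Krt5 fell 3.20-fold and Krt23 rose. The other keratin called lower was Krt222, which entered the test only through its sham libraries, so that 1 was lower without it. The median log2 difference was 0.0058 over the keratins and 0.013 over all genes. With an unadjusted p under 0.05 there were 7 of the 36 keratins, beside 7598 of all 16092 genes. Of the alternatives, edgeR called 1 higher and 5 lower (37% of all genes) and DESeq2 2 higher and 7 lower (42.5%). Without the 3 libraries with nasal gland transcripts 3 were higher (Krt23, Krt4, Krt78) and 4 lower (Krt5, Krt14, Krt75, Krt222), which is 19.44% of the keratins against 28% of all genes. Without Sham 4 alone, 1 was higher and 7 lower (22.22% against 37.4%). The lower counts with edgeR, with DESeq2 and with libraries left out each include Krt222.

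**Figure D1:**
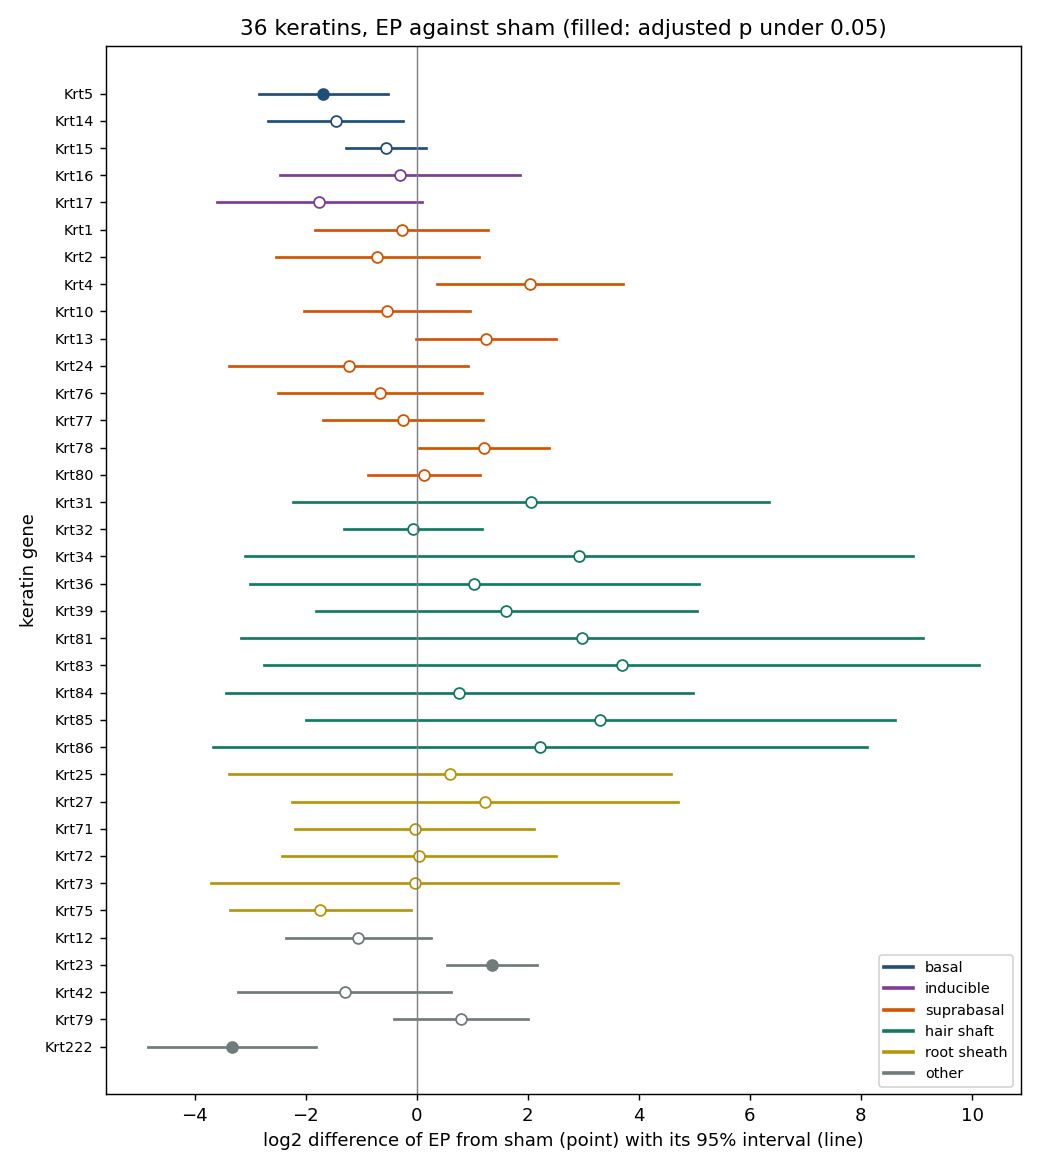
Log2 difference between EP and sham (x axis, limma, 5 rats against 5) of the 36 keratins tested, ordered by class, with 95% intervals as bars and filled points for an adjusted p under 0.05. Krt23 lies above 0, Krt5 and Krt222 lie below 0, and the widest intervals are those of Krt83, Krt81, Krt34 and Krt86.

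Of the basal keratins, Krt5 passed the test between EP and sham and Krt14 and Krt15 did not. Krt5 is the type II chain of basal keratinocytes, and its main transcript lies at chr7:143319919-143324536. Krt5 stood at 384743, 343584, 844927, 34833 and 260586 in Sham 1 to 5 and at 121964, 72507, 34582, 72362 and 136330 in EP 1 to 5. In the gel groups Krt5 was 143530, 79201, 55398, 101232 and 83633 in Cur gel 1 to 5, 96455, 78743, 132957, 134771 and 52638 in ZNP gel 1 to 5 and 125016, 75422, 126124, 96079 and 65056 in Cur/ZNP gel 1 to 5. Sham 1, 2, 3 and 5 lay above all 20 libraries of the other groups, while Sham 4 lay at the level of EP 3, the lowest of all. The fall in EP passed the test (log2 difference -1.68, SE 0.56, 95% interval -2.85 to -0.51, adjusted p = 0.0230, limma). It did not pass without Sham 1, Sham 3 or EP 3 (adjusted p = 0.0603, 0.0860 and 0.0696, limma), and without the 3 libraries with nasal gland transcripts it was -1.96 (adjusted p = 0.00380). A second transcript of Krt5 held 4.65% of its counts in sham and 11.9% in EP.

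Krt14, the type I partner of Krt5 (main transcript chr10:88118175-88122233), had 355496, 349872, 626327, 29142 and 309315 in Sham 1 to 5 and 137154, 75726, 43405, 77334 and 129136 in EP 1 to 5. Krt14 reached 157665, 72167, 49389, 126330 and 72943 in Cur gel 1 to 5, 126255, 81924, 154186, 136674 and 41823 in ZNP gel 1 to 5 and 119301, 72448, 121237, 95054 and 60480.4 in Cur/ZNP gel 1 to 5. As with Krt5, every sham library but Sham 4 was above the other 20. The difference between EP and sham missed the threshold (log2 difference -1.46, SE 0.59, 95% interval -2.67 to -0.24, adjusted p = 0.0541, limma). Krt14 passed without Sham 4 (-2.21, adjusted p = 0.000556), without EP 1 (adjusted p = 0.0499) and without the 3 libraries (-1.84, adjusted p = 0.00726), and also with edgeR (adjusted p = 0.0109) and DESeq2 (adjusted p = 0.00110). The ratio of Krt5 to Krt14 stayed between 0.764 and 1.35 in the 25 libraries.

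Krt15, a type I keratin of the basal layer that also marks slow-cycling cells of the hair bulge (chr10:88046803-88050622), followed another order. Krt15 was counted at 7790.1, 3728, 2975, 9230.2 and 4845 in Sham 1 to 5 and at 4859, 2617, 3288, 2345 and 5827 in EP 1 to 5. Krt15 was at 2730.2, 6210.4, 2387, 2776 and 4562 in Cur gel 1 to 5, 7585, 6794, 3602, 8109.6 and 7397 in ZNP gel 1 to 5 and 6097, 3812, 6119, 4227 and 9143 in Cur/ZNP gel 1 to 5. Sham 4, the lowest sham library for Krt5 and Krt14, was the highest of all 25 for Krt15, and the groups overlapped (log2 difference -0.55, SE 0.34, 95% interval -1.27 to 0.16, adjusted p = 0.214, EP against sham, limma).

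**Figure D2:**
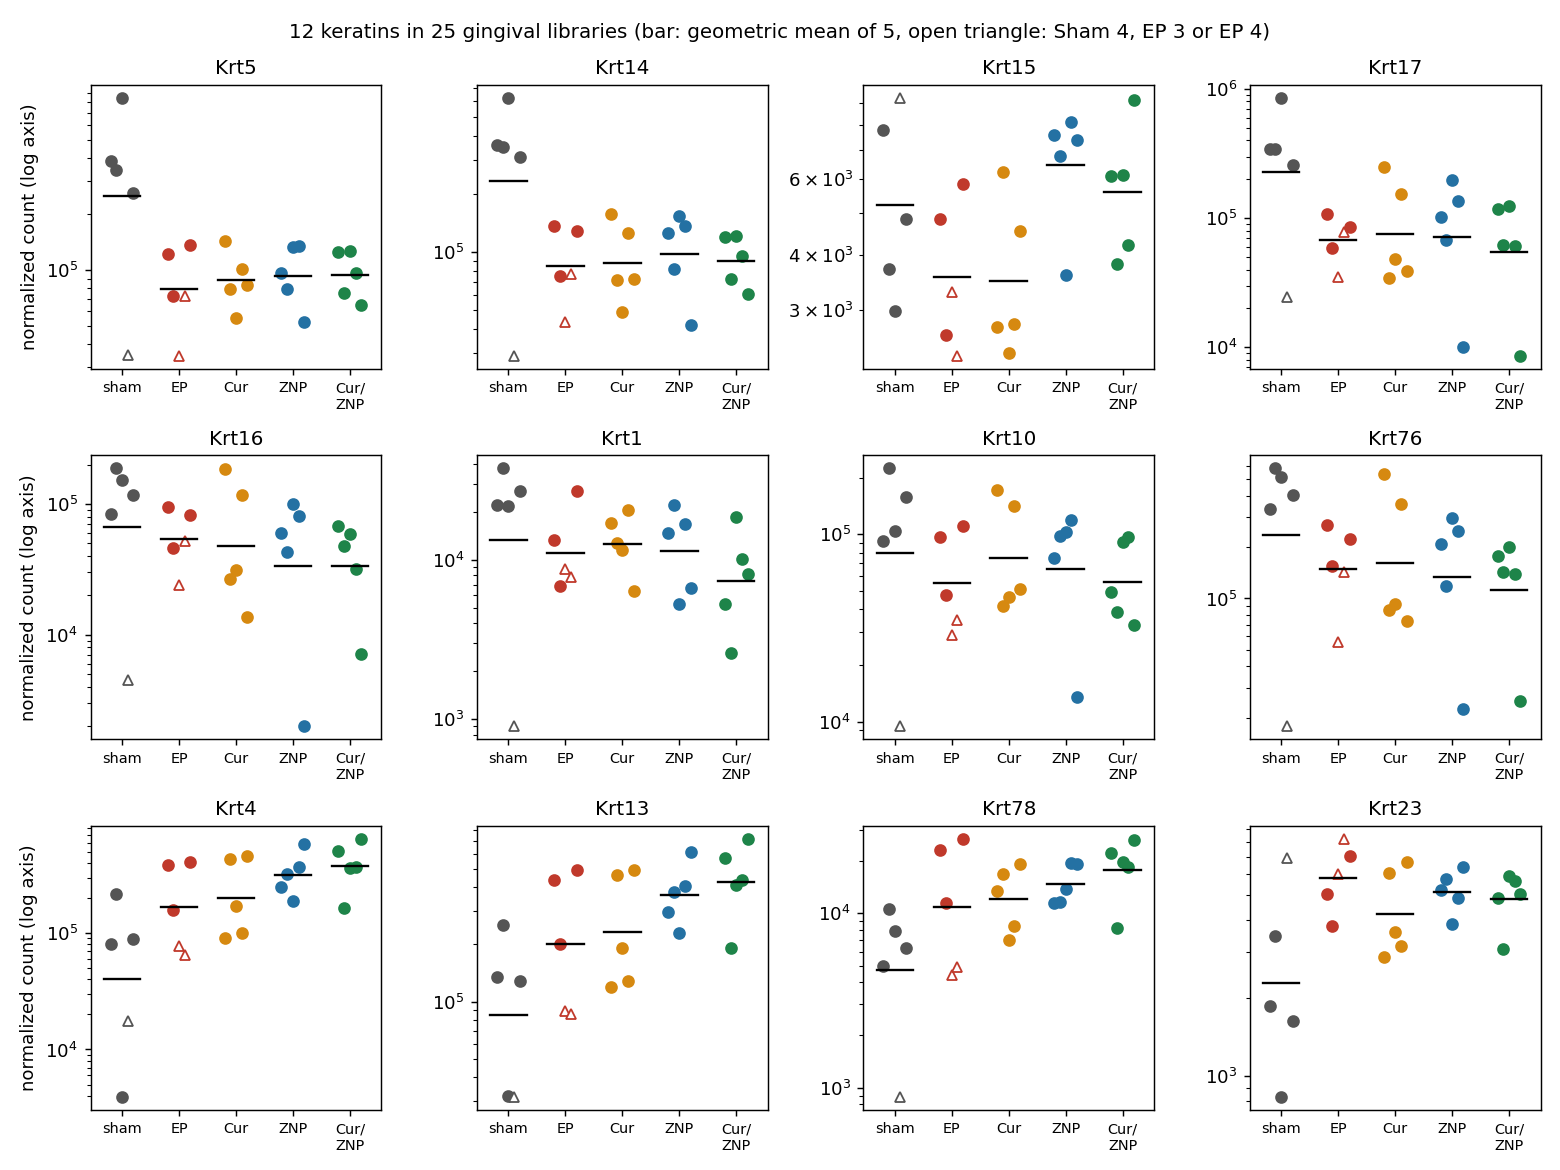
Normalised read counts (y axes, log scale) of 12 keratins in each of the 25 libraries by group, with the bar at the geometric mean of 5 rats and open triangles for Sham 4, EP 3 and EP 4. For Krt5, Krt14 and Krt17 the sham libraries other than Sham 4 lie above all others, and for Krt4 and Krt13 the highest library is Cur/ZNP gel 5.

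The inducible keratins Krt17 and Krt16 did not pass the test in EP by limma. Krt17, induced in wounded epithelium and also present in basal appendage cells (main transcript chr10:88158993-88163712), had 342870, 344374, 853850, 24503 and 257948 in Sham 1 to 5 and 106757, 59055, 35114, 78398 and 84868 in EP 1 to 5. Krt17 was found at 250229, 34334, 48272, 154690 and 38863 in Cur gel 1 to 5, 102750, 67559.7, 195771, 135331 and 10091 in ZNP gel 1 to 5 and 117631, 61914, 124300, 60381 and 8579 in Cur/ZNP gel 1 to 5. Sham 1, 2, 3 and 5 were above the other 20 libraries, though the lowest of them (Sham 5) was close to Cur gel 1. The difference of EP from sham was -1.75 (SE 0.89, 95% interval -3.60 to 0.10, adjusted p = 0.126, limma), and it passed without Sham 4 (-2.56, adjusted p = 0.0181) and with all libraries in edgeR (adjusted p = 0.0305) and DESeq2 (adjusted p = 0.00507). It did not pass in limma when Sham 4, EP 3 and EP 4 were all left out. A transcript that spans Krt14, Krt16 and Krt17 held 17.3% of the Krt17 counts in sham and 12.1% in EP, so reads of these neighbours may be shared.

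Krt16, a type I keratin of activated and thick oral epithelium (chr10:88149345-88152064), was at 83609.7, 187073, 151759, 4545 and 118020 in Sham 1 to 5 and 94808, 45920, 24221, 51913 and 82518 in EP 1 to 5. Krt16 ranged over 185282, 26485, 31338, 117450 and 13638 in Cur gel 1 to 5, 60244, 42872, 99305, 81528 and 1997 in ZNP gel 1 to 5 and 67628, 47961, 59199.9, 31565 and 7122 in Cur/ZNP gel 1 to 5. The groups overlapped widely, with ZNP gel 5 the lowest library of all and Sham 2 and Cur gel 1 the highest. The comparison of EP with sham gave log2 difference -0.30, SE 1.04, 95% interval -2.46 to 1.86, adjusted p = 0.841 (limma), and its sign turned without Sham 2 (0.076) and without Sham 3 (0.0001).

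Over Krt5, Krt12, Krt14, Krt17, Krt42 and Krt75, Sham 1, 2, 3 and 5 lay above every EP and gel library. These were 6 of the 36 keratins tested (16.67%), against 6.02% of all genes tested, and they were counted after the values had been seen. In each of them Sham 4 lay far below the other sham libraries. For Krt75, a keratin of the companion layer of the hair follicle, sham held 743, 720.1, 1673, 46.8 and 691 and EP 183, 126, 256, 136 and 87.1 in libraries 1 to 5 of each group. Krt75 did not pass between EP and sham (log2 difference -1.73, SE 0.78, 95% interval -3.36 to -0.11, adjusted p = 0.0850, limma) and passed without Sham 4 (adjusted p = 0.00449), with edgeR (adjusted p = 0.0152) and with DESeq2 (adjusted p = 0.00227).

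Among the suprabasal keratins, Krt4 and Krt13 missed the threshold between EP and sham by limma. Against sham, Krt4 rose in all 3 gel groups and Krt13 rose in ZNP gel and Cur/ZNP gel. Krt4, the type II chain of the pair of lining mucosa (chr7:143518010-143523503), had 81088, 217293, 3915, 17731 and 89376 in Sham 1 to 5 and 383683, 159322, 76847, 65477 and 409402 in EP 1 to 5. Krt4 stood at 90575, 434078, 169545, 100512 and 461395 in Cur gel 1 to 5, 250950, 323380, 188601, 370969 and 579508 in ZNP gel 1 to 5 and 511171, 164149, 364231, 371351 and 645626 in Cur/ZNP gel 1 to 5. Sham 3 was the lowest and Sham 4 the next lowest of the 25 libraries, and Sham 1, 2 and 5 lay within the range of the diseased groups, above EP 3 and EP 4. The difference between EP and sham missed the threshold (log2 difference 2.03, SE 0.81, 95% interval 0.36 to 3.71, adjusted p = 0.0515, limma), and passed without EP 3 (adjusted p = 0.0422), EP 4 (0.0357), Sham 2 (0.0103) or Sham 5 (0.0369). Krt4 also passed without Sham 4, EP 3 and EP 4 together, but not with edgeR, with DESeq2 or in limma on the 2 groups alone.

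Krt13, its type I partner (chr10:88032130-88036040), had 135073, 254388, 31891, 31579 and 129031 in Sham 1 to 5 and 437104, 200584, 89052, 86044 and 491521 in EP 1 to 5. Krt13 rested at 119840, 461637, 192821, 129182 and 493154 in Cur gel 1 to 5, 297497, 378551, 230998, 404154 and 613207 in ZNP gel 1 to 5 and 570242, 190922, 412657, 439223 and 719292 in Cur/ZNP gel 1 to 5. Its low libraries were again Sham 3 and Sham 4, and its highest were Cur/ZNP gel 5 and ZNP gel 5. Between EP and sham the groups overlapped and the test was not passed (log2 difference 1.24, SE 0.61, 95% interval -0.022 to 2.51, adjusted p = 0.112, limma), except without Sham 2 (adjusted p = 0.0357). The ratio of Krt4 to Krt13 lay between 0.756 and 0.945 in the 20 diseased libraries and between 0.123 and 0.854 in sham.

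Krt78, a type II keratin of upper epithelial layers, had 4987, 10505, 7865, 884 and 6289.9 in Sham 1 to 5 and 22942, 11414, 4404, 4913 and 26626 in EP 1 to 5. Krt78 was 13409, 16786, 7011, 8457 and 18982 in Cur gel 1 to 5, 11484, 11607, 13778, 19428 and 19064 in ZNP gel 1 to 5 and 22068, 8218, 19629, 18356 and 26384 in Cur/ZNP gel 1 to 5. EP 1, 2 and 5 were above all sham libraries, and EP 3 and EP 4 were not. It did not pass in EP (log2 difference 1.21, SE 0.56, 95% interval 0.039 to 2.38, adjusted p = 0.0952, limma) and passed without Sham 2 (adjusted p = 0.0436), without EP 3 (0.0437) and without the 3 libraries (1.42, adjusted p = 0.0166).

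The pair of cornifying epithelium gave no call between EP and sham. Krt1 (chr7:143448318-143453544) had 21960.4, 37539.6, 21638, 900.5 and 26904 in Sham 1 to 5 and 13230.4, 6900.5, 8796, 7776 and 26939 in EP 1 to 5. Krt1 measured 16914, 12678, 11532, 20499.8 and 6365 in Cur gel 1 to 5, 14781, 22239.7, 5258, 16764 and 6697 in ZNP gel 1 to 5 and 5311, 2595, 18705, 10078 and 8143 in Cur/ZNP gel 1 to 5. EP 5 matched Sham 5, the other EP libraries lay below the sham libraries except Sham 4, and Sham 4 was the lowest of all (log2 difference -0.27, SE 0.75, 95% interval -1.83 to 1.29, adjusted p = 0.797, limma). Without Sham 2 the sign of this difference turned (0.10).

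Krt10, the type I partner of Krt1 (chr10:87296451-87300736), had 92471, 225271, 103965, 9425 and 158593 in Sham 1 to 5 and 96219, 47536, 29038, 34918 and 111453 in EP 1 to 5. Krt10 came to 173193, 41208, 46378, 142031 and 51217 in Cur gel 1 to 5, 74840, 97747, 102444, 119227 and 13491 in ZNP gel 1 to 5 and 49061, 38515, 91229, 97372 and 32638 in Cur/ZNP gel 1 to 5. The groups overlapped, and the lowest libraries were Sham 4 and ZNP gel 5 (log2 difference -0.53, SE 0.72, 95% interval -2.02 to 0.96, adjusted p = 0.586, EP against sham, limma).

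Krt76, a type II keratin of hard palate and gingiva (chr7:143488684-143497108), had 336538, 580788, 514122, 17747 and 405801 in Sham 1 to 5 and 269260, 154621, 55187, 143256 and 224311 in EP 1 to 5. Krt76 held 535368, 85924, 92481, 358892 and 73867 in Cur gel 1 to 5, 207867, 119164, 297723, 249912 and 22539 in ZNP gel 1 to 5 and 177909, 142117, 200074, 138915 and 24973 in Cur/ZNP gel 1 to 5. All 5 EP libraries lay below Sham 1, 2, 3 and 5 and above Sham 4, and Cur gel 1 was above Sham 3 (log2 difference -0.66, SE 0.89, 95% interval -2.49 to 1.18, adjusted p = 0.581, EP against sham, limma). The other suprabasal keratins tested, Krt2, Krt24, Krt77 and Krt80, differed between EP and sham by -1.22 for Krt24 to 0.13 for Krt80 on the log2 scale and did not pass.

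**Figure D3:**
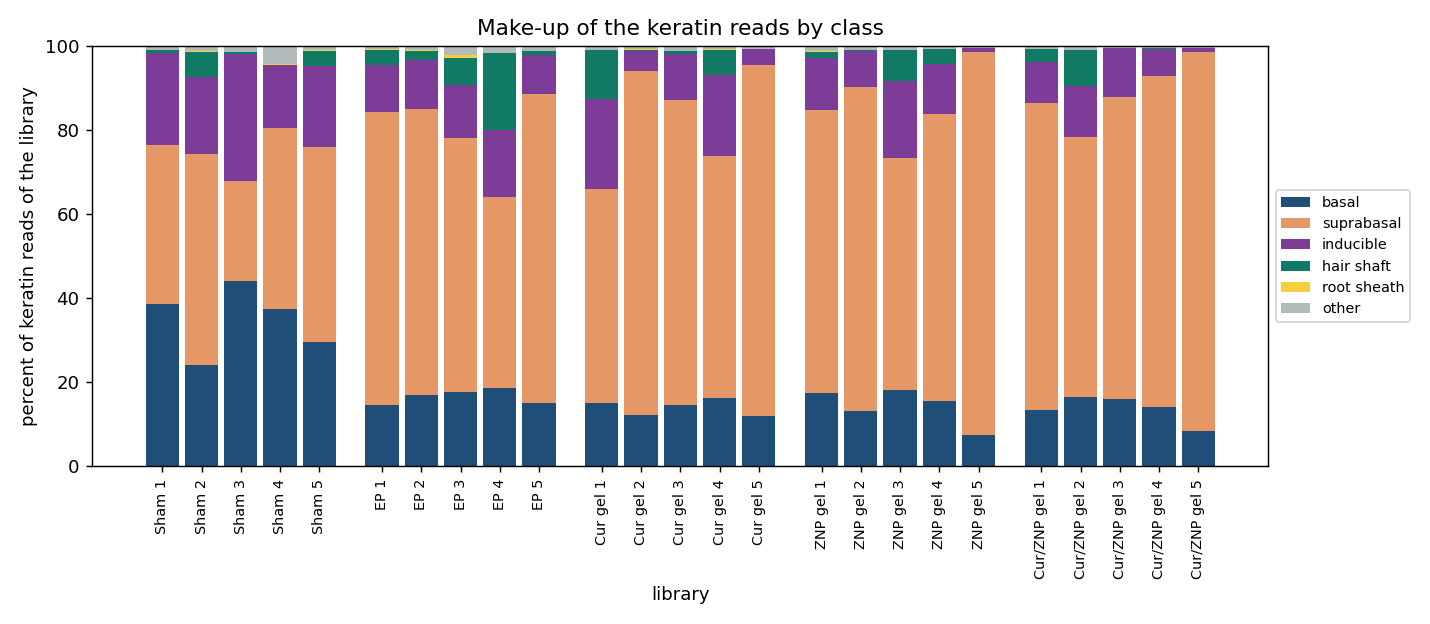
Share of all keratin reads (y axis, percent) held by each class in each of the 25 libraries (x axis, by group). Basal keratins held 24.2% to 44.0% in sham and 7.37% to 18.6% in the 20 other libraries.

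Shares of the keratin reads set these classes against each other within a library. Basal keratins held 38.5, 24.2, 44.0, 37.3 and 29.6 percent of the keratin reads in Sham 1 to 5 and 14.5, 17.0, 17.5, 18.6 and 15.0 percent in EP 1 to 5. They held 15.0, 12.1, 14.6, 16.2 and 11.98 percent in Cur gel 1 to 5, 17.4, 13.2, 18.1, 15.5 and 7.37 percent in ZNP gel 1 to 5 and 13.4, 16.4, 16.0, 14.0 and 8.30 percent in Cur/ZNP gel 1 to 5. All 5 sham libraries, Sham 4 among them, were above the 20 others. Suprabasal keratins held 37.9, 50.1, 24.0, 43.3 and 46.3 percent in sham and 69.8, 68.0, 60.5, 45.5 and 73.6 percent in EP, where EP 4 lay within the range of sham. In EP 4 hair shaft keratins held 18.3% of the keratin reads, more than in any other library.

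**Figure D4:**
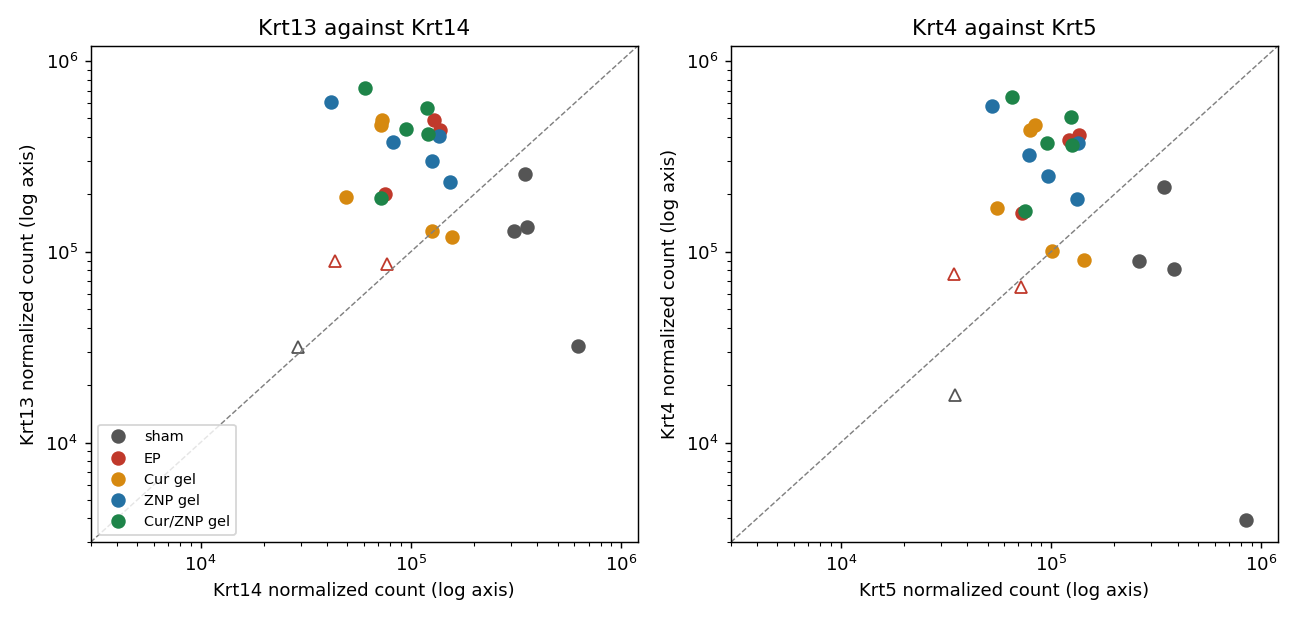
Normalised read counts (log axes) of Krt13 against Krt14 and of Krt4 against Krt5 in the 25 libraries, with a dashed line of equality and colours for the groups. All sham libraries but Sham 4 in Krt13 against Krt14 lie below the line, and most libraries of the other groups lie above it.

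The ratio of Krt4 to Krt5 was 0.211, 0.632, 0.00463, 0.509 and 0.343 in Sham 1 to 5 and 3.15, 2.20, 2.22, 0.905 and 3.003 in EP 1 to 5. It was 0.631, 5.48, 3.06, 0.993 and 5.52 in Cur gel 1 to 5, 2.60, 4.11, 1.42, 2.75 and 11.01 in ZNP gel 1 to 5 and 4.09, 2.18, 2.89, 3.87 and 9.92 in Cur/ZNP gel 1 to 5. All EP libraries were above all sham libraries, EP 3 and EP 4 included, and Cur gel 1 fell just inside the sham range. The ratio of Krt13 to Krt14 was 0.380, 0.727, 0.0509, 1.08 and 0.417 in Sham 1 to 5 and 3.19, 2.65, 2.05, 1.11 and 3.81 in EP 1 to 5. Here the highest sham library (Sham 4) and the lowest EP library (EP 4) were almost equal, and Cur gel 1 and Cur gel 4 lay below them. These ratios compare each library with itself, were formed after the values had been seen and were not tested.

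Hair shaft keratins varied widely between libraries of the same group. Their summed normalised count was 11908, 171721, 20111, 317 and 70379 in Sham 1 to 5 and 68310.0, 19299.5, 29661, 149939 and 18650.2 in EP 1 to 5. It was 233259, 3969, 5824, 87021 and 554 in Cur gel 1 to 5, 20242, 2176, 119218, 64634 and 429 in ZNP gel 1 to 5 and 57419, 79876, 558, 464 and 515 in Cur/ZNP gel 1 to 5. The highest library, Cur gel 1, held 735.6 times the sum of the lowest, Sham 4. In all, 16 libraries lay over 10000, 6 under 1000 (Sham 4, Cur/ZNP gel 3, 4 and 5, Cur gel 5 and ZNP gel 5) and 3 between. No EP library lay in the low range, and each other group had at least 1 there.

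**Figure D5:**
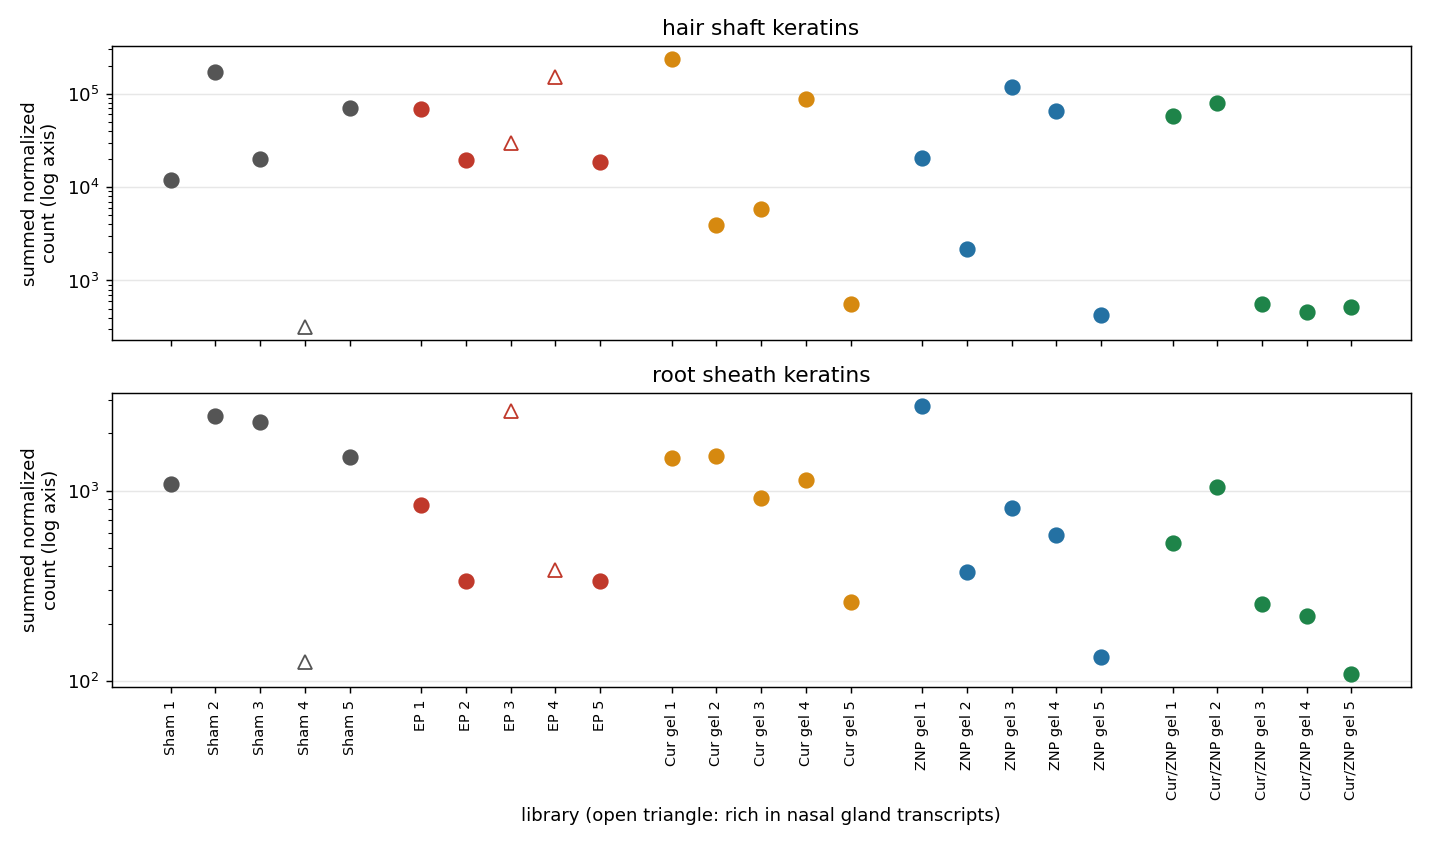
Summed normalised read counts (y axes, log scale) of the hair shaft and of the root sheath keratins in each of the 25 libraries by group. Hair shaft sums span 317 to 233259 and root sheath sums 109 to 2786.

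Krt36, a type I hair keratin also known from the papillae of the tongue (chr10:88016602-88019967), had 5809, 71448, 11379, 119.9 and 29319 in Sham 1 to 5 and 24590, 7772, 9452, 48679 and 6910.0 in EP 1 to 5. Krt36 was 82047, 1723, 2273, 30464 and 158 in Cur gel 1 to 5, 8664, 805, 37404, 23428 and 179 in ZNP gel 1 to 5 and 20994, 23437, 147, 145 and 209 in Cur/ZNP gel 1 to 5. The lowest library of all was Sham 4 and the highest was Cur gel 1, and the groups overlapped. Krt36 differed by 1.04 (95% interval -3.01 to 5.08) between EP and sham and by -0.43 without Sham 4. The sign also turned with edgeR (-0.27) and DESeq2 (-0.27) with all libraries.

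Krt84, a type II hair keratin likewise found in tongue papillae (chr7:143179835-143187648), had 4032, 44594, 6382, 97.6 and 19248 in Sham 1 to 5 and 14597, 3744, 6242, 25732 and 3572 in EP 1 to 5. Krt84 was 48872, 1056, 1423, 16568 and 70.2 in Cur gel 1 to 5, 5166, 597, 23129.5, 14321 and 39.3 in ZNP gel 1 to 5 and 13579.9, 14266, 113, 65.1 and 81.3 in Cur/ZNP gel 1 to 5. The libraries stood in nearly the order of Krt36, and the ratio of Krt84 to Krt36 kept between 0.220 and 0.814. Krt84 differed by 0.77 (95% interval -3.44 to 4.98) between EP and sham and by -0.62 without Sham 4, and edgeR (-0.46) and DESeq2 (-0.46) turned its sign with all libraries.

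Krt86 and Krt83, type II keratins of the hair cortex with close copies of each other, had reads that may be shared between them. Krt86 had 556, 10941, 519, 32.5 and 4580.1 in Sham 1 to 5 and 6373, 1718, 3292, 17314 and 1712 in EP 1 to 5. Krt86 held 24376, 163, 495, 10077 and 0 in Cur gel 1 to 5, 1471, 95.1, 14121, 6582 and 0 in ZNP gel 1 to 5 and 5452, 10049.9, 0, 6.51 and 19.8 in Cur/ZNP gel 1 to 5. It was at 0 in Cur/ZNP gel 3, ZNP gel 5 and Cur gel 5 (log2 difference 2.22, SE 2.84, 95% interval -3.67 to 8.11, adjusted p = 0.560, EP against sham, limma). Krt83 stood at 158, 13418, 235, 0 and 5207 in Sham 1 to 5 and 6922, 1834, 2919, 15405 and 1635 in EP 1 to 5. For Krt83 the gel values were 21435, 316, 482, 7361 and 0 in Cur gel 1 to 5, 1329.8, 124, 11275, 6224 and 0 in ZNP gel 1 to 5 and 5095, 7848, 0, 0 and 7.94 in Cur/ZNP gel 1 to 5. The libraries at 0 were Sham 4, Cur/ZNP gel 3 and 4, ZNP gel 5 and Cur gel 5 (log2 difference 3.69, SE 3.11, 95% interval -2.75 to 10.12, adjusted p = 0.363, EP against sham, limma).

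Of the 10 hair shaft keratins tested, 9 were highest in Cur gel 1, namely Krt31, Krt34, Krt36, Krt39, Krt81, Krt83, Krt84, Krt85 and Krt86. The exception was Krt32, a keratin of the hair cuticle, whose values ran only from 13.2 to 252 and were highest in EP 5. Hoxc13, the homeobox factor that activates hair keratin genes and a marker listed for the hair follicle, was read in the same libraries. It had 38.0, 149, 93.1, 0 and 166 in Sham 1 to 5, 97.1, 31.7, 42.3, 145 and 8.71 in EP 1 to 5, 159.8, 15.7, 3.45, 65.01 and 0 in Cur gel 1 to 5, 27.6, 2.59, 120.1, 34.0 and 0 in ZNP gel 1 to 5 and 72.2, 45.1, 0, 0 and 0 in Cur/ZNP gel 1 to 5. The 6 libraries at 0 for Hoxc13 were those whose hair shaft sum lay under 1000. Hoxc13 is 1 of 14 listed hair follicle markers, and the list as a whole did not follow the hair shaft sum in every group. In ZNP gel the 14 markers summed to 42018 to 51109, of which Tgm3 alone held 35650 to 42399. The hair shaft sum there ran from 429 to 119218. In Cur gel the 14 markers summed to 26777 to 68475 beside hair shaft sums of 554 to 233259. In Cur/ZNP gel they summed to 30130 to 50115 beside 464 to 79876. In sham the range was 5297 (Sham 4) to 74988 beside 317 (Sham 4) to 171721, and in EP 17322 to 68225 beside 18650 to 149939. Hoxc13 was examined for this after the hair keratin values had been seen, and how much hair, papilla or skin each piece of tissue held is not given in the sources used here.

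Root sheath keratins, which surround the growing shaft inside the follicle, were summed in the same way. Their sum was 1081, 2476, 2285, 126 and 1504 in Sham 1 to 5 and 844, 334, 2611, 382 and 337 in EP 1 to 5. In the gel groups it was 1494, 1523, 914, 1138 and 260.5 in Cur gel 1 to 5, 2786, 372, 814, 586 and 133 in ZNP gel 1 to 5 and 531, 1046, 255, 219 and 109 in Cur/ZNP gel 1 to 5. The highest were ZNP gel 1, EP 3, Sham 2 and Sham 3. The 6 libraries lowest for the shaft sum were also the 6 lowest for the sheath sum. EP 4 ranked 3 of 25 for the shaft and 16 for the sheath, whereas Cur gel 2 ranked 18 and 5. Krt71, an inner root sheath keratin, ranged from 52.8 to 1117 in sham and 190.2 to 1027 in EP, Krt27 from 0 to 191 and 9.51 to 341, and Krt25 from 0 to 350.3 and 3.48 to 659.6. Krt72 reached the CPM minimum only in 1 sham library and Krt73 only in 1 EP and 1 ZNP gel library.

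Of the keratins in no class, Krt23 and Krt222 passed between EP and sham. Krt23, a type I keratin, had 1868, 3480.4, 828.7, 6959.7 and 1628 in Sham 1 to 5 and 5021, 3777, 6039, 8223 and 7062 in EP 1 to 5. Krt23 was 2887, 6056, 3594, 3178 and 6682 in Cur gel 1 to 5, 5212, 5773, 3864, 4838 and 6379.6 in ZNP gel 1 to 5 and 4873, 3079, 5908, 5670.1 and 5044 in Cur/ZNP gel 1 to 5. Sham 4 lay within the diseased range and the other sham libraries lay below all EP libraries. Krt23 rose in EP (log2 difference 1.35, SE 0.39, 95% interval 0.55 to 2.16, adjusted p = 0.00961, limma), with adjusted p of 0.000641 to 0.0378 over the fits that left out 1 library.

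Krt222, whose protein is little studied, was the only keratin whose EP and sham libraries did not overlap, against 16.5% of all genes. It had 149.7, 144, 157, 61.0 and 56.0 in Sham 1 to 5 and 11.6, 26.4, 0, 16.1 and 19.2 in EP 1 to 5. Krt222 was 41.9, 28.3, 31.9, 31.2 and 17.5 in Cur gel 1 to 5, 17.8, 51.9, 44.4, 40.1 and 13.7 in ZNP gel 1 to 5 and 40.0, 70.1, 19.4, 35.3 and 6.94 in Cur/ZNP gel 1 to 5. Its difference between EP and sham was called lower (log2 difference -3.33, SE 0.73, 95% interval -4.84 to -1.82, adjusted p = 0.00158, limma). Its counts were low and it reached the CPM minimum only in 3 sham libraries, so it could pass the filter only through the group in which it was high and its call is no evidence of direction.

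Krt12, known as a keratin of the cornea, had 685, 739, 1290.2, 93.5 and 659 in Sham 1 to 5 and 309, 202, 190.3, 183 and 481 in EP 1 to 5 (log2 difference -1.05, SE 0.63, 95% interval -2.36 to 0.25, adjusted p = 0.193, limma). Krt42, a type I keratin of rodents, had 14505, 29817, 43024, 870.0 and 16750 in Sham 1 to 5 and 9547, 4414, 1676, 3751 and 11499.9 in EP 1 to 5 (log2 difference -1.295, SE 0.93, 95% interval -3.21 to 0.62, adjusted p = 0.279, limma). Neither passed between EP and sham by limma, and both passed without Sham 4 (adjusted p = 0.0214 for Krt12 and 0.0303 for Krt42) and with DESeq2 (adjusted p = 0.0418 and 0.0436). Neither passed with edgeR, nor in limma when Sham 4, EP 3 and EP 4 were all left out. In both the sham libraries other than Sham 4 were above all EP libraries. Krt79, of sebaceous ducts, ranged from 189 to 2050.0 in sham and 314 to 2363 in EP.

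The gel groups were next compared with sham, the same controls as for EP. In Cur gel, 1 keratin was higher and 1 lower, which is 5.56% of the keratins against 38% of all genes (18.9% higher and 19.1% lower). With edgeR 0 were higher and 3 lower (40.8% of all genes called), and with DESeq2 1 and 6 (45.7%). Krt4 rose (log2 difference 2.29, SE 0.81, 95% interval 0.62 to 3.97, adjusted p = 0.0297, limma) and Krt5 fell (log2 difference -1.51, SE 0.56, 95% interval -2.68 to -0.35, adjusted p = 0.0383, limma). Krt222 was the only keratin whose Cur gel and sham libraries did not overlap, against 17.7% of all genes. It reached the CPM minimum only in sham, so this is no evidence of direction, and it is among the lower with edgeR and DESeq2. Without the 3 libraries with nasal gland transcripts 1 keratin was higher (Krt23) and 7 were lower, Krt222 among them (22.22% against 36.5%). Krt4 was then 1.99 (adjusted p = 0.0661) and lost its call also without Sham 3, Sham 4, Cur gel 2 or Cur gel 5 (adjusted p = 0.110, 0.0726, 0.0784 and 0.0771). Krt5 lost its call without 7 of the 10 libraries in turn, all but Sham 4, Cur gel 1 and Cur gel 4.

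In ZNP gel, 4 keratins were higher and 0 lower than in sham by limma, which is 11.11% against 32.1% of all genes (16.7% higher and 15.4% lower). Krt4 (log2 difference 2.98, SE 0.81, 95% interval 1.2996 to 4.65, adjusted p = 0.00868, limma), Krt13 (log2 difference 2.10, SE 0.61, 95% interval 0.84 to 3.36, adjusted p = 0.0126, limma), Krt78 (log2 difference 1.64, SE 0.56, 95% interval 0.47 to 2.81, adjusted p = 0.0304, limma) and Krt23 (log2 difference 1.17, SE 0.39, 95% interval 0.37 to 1.98, adjusted p = 0.0252, limma) rose. All ZNP gel libraries lay above all sham libraries for Krt78 and below them for Krt222, which are the only keratins without overlap, against 13.8% of all genes. Krt222 reached the CPM minimum only in sham, so its lack of overlap is no evidence of direction. It is among the lower with edgeR, with DESeq2 and without the 3 libraries. Krt13 passed in each fit that left out 1 library and Krt4 too. Krt78 lost its call without Sham 1, Sham 4, ZNP gel 4 or ZNP gel 5, and Krt23 without Sham 1, Sham 3, Sham 5 or ZNP gel 5. With edgeR 2 were higher and 3 lower (32.6% of all genes called), and with DESeq2 3 and 6 (38.9%). In limma 7 of the 36 keratins had an unadjusted p under 0.05 in either direction, beside 7038 of all 16092 genes. Without the 3 libraries limma called 8 lower, among them Krt5 (-2.14), Krt14 (-2.005) and Krt17 (-2.49), beside 4 higher (33.33% against 29.5%).

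In Cur/ZNP gel, 4 keratins were higher and 4 lower than in sham, which is 22.22% against 39.7% of all genes (20.2% higher and 19.5% lower), and no keratin was without overlap (18.7% of all genes). Krt4 (log2 difference 3.21, SE 0.81, 95% interval 1.53 to 4.88, adjusted p = 0.00391, limma), Krt13 (log2 difference 2.33, SE 0.61, 95% interval 1.06 to 3.59, adjusted p = 0.00504, limma), Krt78 (log2 difference 1.91, SE 0.56, 95% interval 0.74 to 3.08, adjusted p = 0.0108, limma) and Krt23 (log2 difference 1.07, adjusted p = 0.0323, limma) rose. Krt5 (-1.42, adjusted p = 0.0492), Krt12 (-1.60, 0.0480) and Krt42 (-2.51, 0.0356) fell, and Krt222 was called lower (-1.89, adjusted p = 0.0429, limma). Krt4, Krt13 and Krt78 passed in each fit that left out 1 library, whereas Krt5 and Krt12 each lost the call when any 1 library of these 2 groups other than Sham 4 was left out. Krt23, Krt42 and Krt222 were each called in only 3 of these 10 fits (highest adjusted p = 0.117, 0.1003 and 0.136). Krt222 reached the CPM minimum only in sham, so its call is no evidence of direction, and 3 keratins were lower without it. It is also among the lower with edgeR, with DESeq2 and without the 3 libraries. With edgeR 3 were higher and 8 lower (39.6% of all genes called), and with DESeq2 3 and 9 (44.9%). Without the 3 libraries, 4 were higher and 12 lower (44.44% against 36.6%), with Krt14 at -2.12 and Krt17 at -2.89. Beside these counts, fibroblast markers were higher in Cur/ZNP gel for 5 of 7, with and without the 3 libraries, and skeletal muscle markers for 8 of 9 (3 without the 3 libraries). Stratified epithelium markers were lower for 2 of 10, and for 9 of 10 without the 3 libraries. Without these libraries they were also lower for 9 of 10 in Cur gel (36.5% of all genes called) and in ZNP gel (29.5%). Skeletal muscle markers were higher for 5 of 9 in ZNP gel (32.1% of all genes called) and 0 of 9 in Cur gel (38%), and for 0 of 9 in both without the 3 libraries. What part these had in the keratin counts was not tested. Because EP and the 3 gel groups share the sham libraries, these 4 comparisons are not independent of each other.

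Between the groups with disease, 0 keratins passed in any of the 6 comparisons by limma, edgeR or DESeq2. Over all genes the percentages called were 0, 0.00621 and 0 against EP for Cur gel, for ZNP gel and for Cur/ZNP gel and 0 for the 3 comparisons among gels. At an unadjusted p under 0.05 limma gave 1 keratin for Cur gel against EP (Krt222) and 2 for ZNP gel against EP (Krt15, Krt222). It gave 0 for Cur/ZNP gel against EP and 1 for ZNP gel against Cur gel (Krt15). Of all 16092 genes, 284, 481, 2054 and 183 had such a p in these comparisons, in that order. Krt222 reached the CPM minimum in no library of EP, Cur gel or ZNP gel. Its differences between these groups therefore rest on low counts. For Cur/ZNP gel against EP the count of keratins at an unadjusted p under 0.05 was 13 without Cur/ZNP gel 2, 8 without Cur/ZNP gel 1 and 4 with the 2 groups alone. None of these passed after adjustment. The matching counts over all genes in these fits are not given here, so these counts are no result about the keratins. The 10 hair shaft keratins differed between Cur/ZNP gel and EP by a median of -4.40 on the log2 scale, from -6.26 for Krt83 to 1.14 for Krt32, and none passed (lowest adjusted p = 0.395, limma). The intervals were wide. Cur/ZNP gel differed from EP by 1.17 for Krt4 (95% interval -0.50 to 2.85), by 1.09 for Krt13 (-0.18 to 2.35), by 0.26 for Krt5 (-0.91 to 1.43) and by 0.084 for Krt14 (-1.13 to 1.298), all on the log2 scale. For Krt4 and Krt13 a further difference as large as that between EP and sham lay inside the interval.

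Factors that direct keratinocyte genes were counted as a list of 20, all tested. Between EP and sham 4 were higher and 2 lower, while of all genes 18.8% were higher and 18.8% lower. Skil (log2 difference 1.77, SE 0.35, adjusted p = 0.000848), a partner of Smad proteins, Pax9 (log2 difference 1.92, SE 0.41, adjusted p = 0.00126), an oral epithelial and dental factor, and Ehf (log2 difference 1.503, SE 0.49, adjusted p = 0.0192), an epithelial Ets factor, rose (limma). Tp63, the master factor of stratified epithelium and an activator of Krt5 and Krt14, fell (log2 difference -1.29, SE 0.41, adjusted p = 0.0162, limma). Without the 3 libraries 3 were higher and 5 lower (28% of all genes called), with Tp63 at -1.47. Against sham, 3 were higher and 1 lower in Cur gel, 2 and 1 in ZNP gel and 2 and 5 in Cur/ZNP gel, where 38%, 32.1% and 39.7% of all genes were called.

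Proteins that bind or anchor keratin filaments were listed as 19, of which 15 were tested, and 1 was higher and 2 lower in EP than in sham, against the 18.8% of all genes in each direction. Hrnr, hornerin of the cornified layer, rose (log2 difference 4.20, SE 1.11, adjusted p = 0.00571, limma), and Perp, a desmosomal protein and Tp63 target (log2 difference -1.33, SE 0.40, adjusted p = 0.0121, limma), and Lad1, ladinin of the basement membrane (log2 difference -0.79, SE 0.29, adjusted p = 0.0401, limma), fell. Without the 3 libraries the counts were 2 and 6 (28% of all genes). Against sham there were 2 higher and 2 lower in Cur gel (38% of all genes called), 2 and 1 in ZNP gel (32.1%) and 3 and 2 in Cur/ZNP gel (39.7%).

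Markers of the cell types in the tissue were read beside the keratins, and their counts stand beside 18.8% of all genes higher and 18.8% lower in EP, and 28% called in either direction without the 3 libraries. Of 10 markers of stratified epithelium, 0 were higher and 5 lower in EP (Tp63, Perp, Dsg3, Serpinb5 and Lgals7), and 8 were lower without the 3 libraries. Their summed count ranged from 95487 (Sham 4) to 804192 in sham and from 108785 to 299700.3 in EP. Tp63 was also counted among the factors above, and Perp and Sfn among the filament proteins, so these lists overlap. Of 14 hair follicle markers 3 were lower (Msx2, Lef1, S100a3), with sums of 5297 to 74988 in sham and 17322 to 68225 in EP. Skeletal muscle markers moved the other way, with 8 of 9 higher in EP and sums of 30466 to 443657 in sham and 420174 to 2198396 in EP, and 0 of 9 passed without the 3 libraries.

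Fibroblast markers gave 1 higher of 7, junctional epithelium markers 1 lower of 4, respiratory epithelium markers 1 higher of 8, and simple epithelium, salivary gland and nasal gland markers 0 of 10, 7 and 8 by limma. Salivary gland markers summed to 2765 to 2399214 in sham and 38244 to 9577767 in EP, and simple epithelium markers to 13024 to 108553 and 21452 to 107815. Every marker in the table had reads in at least 1 library. What part these cell types had in the keratin differences was not tested.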

How the data were processed

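Stranded sequencing libraries were made from the RNA of rat gingiva once rRNA had been removed. The signal in the deposited table is the read count of each Ensembl transcript over a size factor of its library, and the submitters' processing notes name DESeq2 and Rnor_6.0. The aligner is not given in the sources used here. All values were whole multiples of 1 step per library (tolerance 0.01, 100% of values), which gave back whole reads. Transcripts (41078, besides 840 blank lines) were summed to 30547 genes by symbol and chromosome, and 16092 genes with at least 2 CPM in at least 1 library were tested. Analysis used log2(normalised count + 1) and limma 3.58.1 (R 4.3.3) as 1 model of 25 libraries with trended, robust variances, two-sided, with Benjamini-Hochberg adjusted p-values over all genes tested and a threshold of 0.05. A fold change on this scale understates the change of low genes. Alternatives were edgeR 4.0.16 and DESeq2 1.42.0 on whole reads, TMM scaling, pseudocounts of 0.5 and 4, other filters, fits of 2 groups alone, a replicate block and libraries left out. The step was tested on simulated data.

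The members and lists were chosen with earlier results of these data known. Values in every library are given for the basal, inducible and main suprabasal keratins, the 4 hair keratins with the highest mean and any keratin called without overlap in EP, and of the factor and filament lists up to 4 members with the smallest p. Krt23, Krt78, Krt12, Krt42, Krt75 and the other keratins with values were named after their values had been seen. Rats are separate animals. No library was a copy of another, and within groups r of log2 values was 0.722 to 0.963.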

Additional observations from a re-analysis of the deposited data

Results flagged for a closer look

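Of 130 groups of 5 values (21 keratins and 5 class sums in 5 groups), 23 held 1 library at an end whose gap to the next, on the log2 scale, was large against the range of the group (Dixon's 95% value). Chance flags about 1 in 20 independent groups. These groups are not independent, because they share the same libraries and the class sums contain the keratins. The 23 flags therefore cannot be weighed against that rate. Sham 4 was the library in 12 of them, with Krt14 at 29142, Krt1 at 900.5, Krt10 at 9425, Krt76 at 17747, Krt16 at 4545, Krt12 at 93.5, Krt42 at 870.0, Krt75 at 46.8 and Krt24 at 4425, and with sums of 84895 for suprabasal, 29048 for inducible and 126 for root sheath keratins, each the lowest of its group. ZNP gel 5 was lowest of its group for Krt10 (13491), Krt16 (1997), Krt12 (55.6) and Krt24 (532), and ZNP gel 3 for Krt15 (3602). Cur/ZNP gel 5 was lowest for Krt76 (24973), Krt17 (8579), Krt24 (1254) and the inducible sum (15700.4). EP 3 was at 0 for Krt222, and Cur gel 5 had the lowest root sheath sum (260.5) of its group.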

How the results depend on the processing

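Counts of called keratins moved with the library set and the test, and Krt222 is counted among the lower wherever it was called. For EP against sham, the number higher was 2 with TMM scaling, DESeq2, and the largest transcript of each gene alone (chosen after seeing the data), 0 with the 2 groups alone and 3 without Sham 4, EP 3 and EP 4. The number lower was 5 with edgeR, 7 with DESeq2, 1 with the 2 groups alone and 4 without the 3 libraries. For Cur gel against sham, the number higher was 0 with edgeR and with the 2 groups alone, and the number lower was 3 with edgeR, 6 with DESeq2, 2 at a pseudocount of 4, 0 with no filter and 7 without the 3 libraries. For ZNP gel against sham, the number higher was 2 with edgeR and 1 with the 2 groups alone, and the number lower was 3 with edgeR, 6 with DESeq2, 1 at a pseudocount of 4, 8 without the 3 libraries and 1 with the largest transcript. For Cur/ZNP gel against sham, the number lower was 1 with TMM scaling, 8 with edgeR, 9 with DESeq2, 0 with the 2 groups alone and 12 without the 3 libraries. With 1 library left out in turn, the numbers higher and lower ranged from 1 to 4 and 1 to 7 in EP, 0 to 5 and 0 to 6 in Cur gel, 2 to 5 and 0 to 7 in ZNP gel, and 3 to 4 and 0 to 11 in Cur/ZNP gel. In the 6 comparisons without sham every alternative gave 0. The highest numbers lower with 1 library left out all came without Sham 4. Of the keratins 22.22% were then called for EP, beside 37.4% of all genes. Cur gel had 19.44% beside 36%, ZNP gel 27.78% beside 29.5% and Cur/ZNP gel 41.67% beside 36.2%. Shares of all genes with edgeR, with DESeq2 and without the 3 libraries stand in the results above. For the other settings, the replicate block included, they are not given here, so those counts are no result about the keratins.

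Rats share only a number between groups, and of 50 pairs of groups and numbers 17 had a correlation of deviations over 0.1 (-0.392 to 0.506, median -0.0073), while 5 of 25 libraries correlated best with their own number. With the replicate block, 2 keratins were higher in EP, 3 higher in Cur gel and 2 lower in Cur/ZNP gel, all against sham.

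Signs turned between EP and sham for Krt1 without Sham 2 (0.099), for Krt16 without Sham 2 (0.0755) and Sham 3 (0.0001), for Krt36 with edgeR (-0.27), DESeq2 (-0.27), without Sham 4 (-0.43) and without the 3 libraries (-0.81), and for Krt84 with edgeR (-0.46), DESeq2 (-0.46), without Sham 4 (-0.62) and without the 3 libraries (-1.07). With single libraries left out, these differences ranged from -1.25 to 0.099 for Krt1, -1.27 to 0.0755 for Krt16, -0.43 to 1.87 for Krt36 and -0.62 to 1.59 for Krt84. Alternative values were counted for 21 keratins in EP, 10 in each gel group (Krt4, Krt5, Krt12, Krt13, Krt14, Krt17, Krt23, Krt42, Krt78 and Krt222) and 6 class sums in EP, all against sham. Of these, 894 were kept, 86 came to pass the threshold, 92 no longer passed and the 11 keratin values named above turned. Kept meant the same direction and side of the threshold for keratins. For class sums it meant only a move smaller than the spread between rats, and their sign was not checked. On mean log2 values the hair shaft sum was higher in EP with all libraries and lower without the 3 libraries, yet it counts as kept. Close copies (Krt31, Krt34, Krt81, Krt83, Krt86) may share reads, and tissue content limits every comparison in whole gingiva.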
